A study of Xenopus allofraseri with 8 samples.

Results

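The 5 genes described here are named for proteins of cell adhesion signalling and of the actin cytoskeleton: *ptk2* (Trinity gene TR26907|c0_g4), *bcar3* (TR26984|c1_g2), *ptp4a3* (TR77318|c2_g1), *arhgdig* (TR72947|c2_g1) and *arpc4* (TR29064|c2_g1). They were taken as all transcripts whose names begin with these Trinity genes, which gave 28 transcripts out of 218541 and 5 Trinity genes out of 163981. Each gene was selected because 1 of its transcripts passed a threshold between endurant and burst-performant frogs. Differences between the groups below, calls by a test included, thus describe the members and support nothing about them. The article names normalized TPM values as the input of its own test. Here, the chosen transcripts are those that passed edgeR's exact test on rounded estimated counts. The symbols belong to those chosen transcripts and come from their best match in *Xenopus laevis* or *Xenopus tropicalis*. A Trinity gene is a set of assembled transcripts that share sequence, and the transcripts of such a set are called isoforms here, without knowledge of whether they come from splicing, from alleles or from both copies of a duplicated gene.

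The data are from 8 wild adult males of *Xenopus allofraseri* caught in 1 pond. PolyA RNA of the right knee extensors was sequenced as 1 library per frog. The endurant frogs were A, D, E, G and the burst-performant ones B, C, F, H (n = 4 each). The groups came from a clustering of the frogs on 4 performance traits with no treatment applied. Estimated counts, that is, numbers of read pairs that Kallisto assigned to a transcript, ranged over 4715751 to 17359253 in sum per endurant frog and 4449192 to 13611485 per burst-performant frog. By summed estimated counts, frogs H, D and then A were the lowest. In them, 3 counts corresponded to 0.674, 0.636 and 0.399 counts per 1000000, against 0.173 in frog E, the highest. This order is not that of the read pairs the article lists. There, frog D has more read pairs than frogs A, G and H, and frog C has the most of all. Frog C nonetheless had fewer estimated counts than frogs B, E, F and G. The cause was not tested. No 2 libraries of a group were alike within sampling noise (chi-square over transcripts divided by its degrees of freedom, 20.8 to 52.4). The files name transcripts by Trinity ID only, so that markers of muscle or of other cell types could not be looked up, and other genes of the same pathways could not be listed. In a whole muscle, fewer cells of a type and less RNA per cell cannot be told apart.

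As background, focal adhesions are assemblies of integrins and cytoplasmic proteins that tie the extracellular matrix to actin filaments and pass on mechanical load. In mammals, focal adhesion kinase (the product of *PTK2*) is activated at clustered integrins and signals through adaptor proteins to the actin cytoskeleton. Active Rac promotes branching of actin through the Arp2/3 complex. In skeletal muscle, integrins and focal adhesion kinase are known from costameres, the sites where the contractile apparatus is anchored to the membrane.

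All 5 chosen transcripts were at 0 in every endurant frog once estimated counts were rounded, the highest unrounded value being 0.0141 (*arhgdig* i4 in frog D). The transcripts were *ptk2* i4 (TR26907|c0_g4_i4, 4159 bases), *bcar3* i3 (TR26984|c1_g2_i3, 3502 bases), *ptp4a3* i8 (TR77318|c2_g1_i8, 2015 bases), *arhgdig* i4 (TR72947|c2_g1_i4, 1100 bases) and *arpc4* i1 (TR29064|c2_g1_i1, 1403 bases). In 4 of the 5, every burst-performant frog had counts, and only *bcar3* i3 was also at 0 in a burst-performant frog, frog C. Of the 28 transcripts, 24 had a CPM (count per 1000000 read pairs, scaled by the TMM method) above 1 in at least 2 frogs and could be tested across the whole table. The 5 chosen transcripts met this filter through burst-performant frogs alone. At an FDR of 0.05 and an absolute log2 fold change of 2, edgeR's exact test called 5 of the 24, all lower in endurant frogs, and 0.196% of all 55631 transcripts tested, or 0.0863% in that direction. DESeq2's Wald test called 5 of the 24 as well, and 0.275% of all transcripts, or 0.124% in that direction. The edgeR quasi-likelihood test called 0 of the 24 and 0% of all transcripts, although 6 of the 24 and 2038 of all had an unadjusted p under 0.05, and limma on log2(TPM + 1) called 0 of the 24 and 0.00899% of all. The pattern of no count in any endurant frog and counts in every burst-performant frog was found in 0.0683% of the tested transcripts, and with counts in only some burst-performant frogs allowed, in 0.561%. The CPM of the groups did not overlap, and were lower in endurant frogs, in 1.29%. Nothing about the members follows from these counts, as the members were picked for them.

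**Figure D1:**
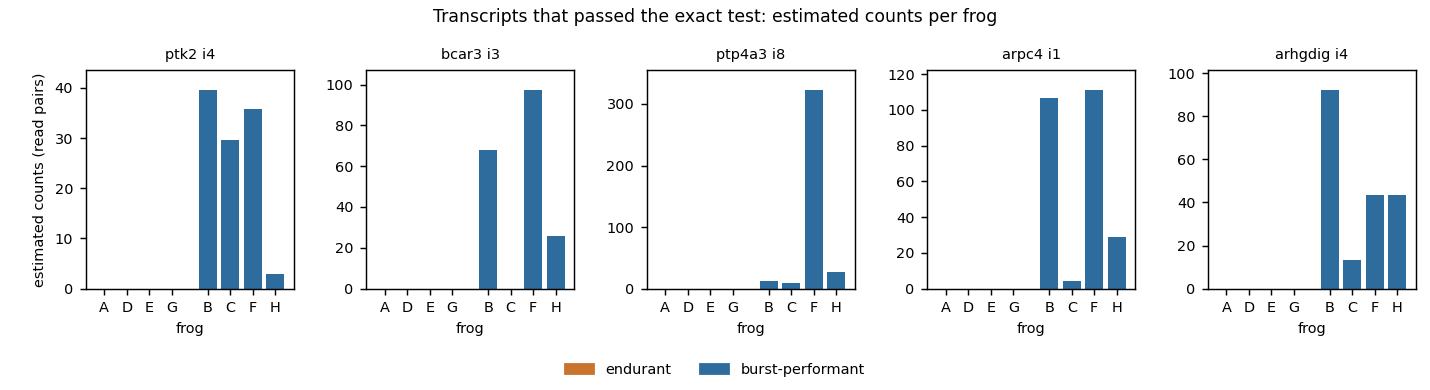
Estimated counts (read pairs, vertical axis) of the 5 transcripts that passed the exact test, 1 bar per frog, with endurant frogs (A, D, E, G) left of burst-performant frogs (B, C, F, H). All endurant bars are at 0, and within the burst-performant group frog F holds 323 of the 372 rounded counts of *ptp4a3* i8, while frog C is at 0 for *bcar3* i3 and at 4 for *arpc4* i1.

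Focal adhesion kinase, the product of *ptk2*, was assembled as 6 transcripts of 279 to 4276 bases. The 4 long ones formed a regular set of lengths. Transcripts i1 and i2 had 4171 and 4054 bases, a difference of 117, and i3 and i4 had 4276 and 4159 bases, again a difference of 117. The step of i1 to i3, and likewise that of i2 to i4, was 105 bases. The sequences were not used here, so that it is not known whether the same stretches account for these steps, which are multiples of 3.

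The chosen transcript *ptk2* i4 had 0 estimated counts in endurant frogs (A, D, E, G), against 39.6, 29.6, 35.9 and 2.90 in burst-performant frogs (B, C, F, H). Frog H, the shallowest library, was thus at the limit of 3 counts. Pooled over frogs, i4 took 0 of 560 rounded counts of *ptk2* in the endurant group, which allows a share of up to 0.536%, and 109 of 675 in the burst-performant group, a share of 16.1% (95% Wilson interval 13.6 to 19.1). For single endurant frogs the limit was looser, from 1.27% in frog E to 5.56% in frog D, on 54 rounded counts. The share in frog H was 6.67%, on 3 counts. By depth, i4 was at least 35.6-fold lower in endurant frogs, against a floor of 3 counts over the group. Intervals and floors of this kind reflect the drawing of counts alone, with pooled read pairs treated as independent. They leave out the spread between frogs and the sharing of ambiguous pairs among transcripts. Duplicates are left out too, as no molecular identifiers are mentioned in the protocols. For the chosen transcripts of the other genes, no burst-performant frog had a share of rounded counts within the pooled interval.

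Isoform usage, given here as the TPM of a transcript (transcripts per 1000000, which corrects for length) as a share of the summed TPM of its gene, differed between frogs within both groups. Transcript i3 held 65.4%, 45.6%, 50.9% and 29.2% of *ptk2* in endurant frogs (A, D, E, G), against 0%, 62.0%, 16.7% and 23.5% in burst-performant frogs (B, C, F, H). Transcript i1 held 12.4%, 34.0%, 22.4% and 36.6% in the endurant frogs, against 40.8%, 4.33%, 40.1% and 43.3% in the burst-performant frogs. The leading transcript was i3 in endurant frogs A, D and E and in burst-performant frog C, and i1 in endurant frog G and in burst-performant frogs B, F and H. Transcript i2, the shortest of the 4, was found in all 8 frogs and averaged 20.3% ± 5.84 in endurant and 12.3% ± 10.2 in burst-performant frogs (SD, n = 4 each). The shares of i1 and i2 summed to 46.6% ± 16.6 in endurant and 44.4% ± 25.6 in burst-performant frogs (SD, n = 4 each), a difference far smaller than the spread. Those of i1 and i3 summed to 74.1% ± 6.12 in endurant and 57.7% ± 12.2 in burst-performant frogs (SD, n = 4 each). That difference was larger than either SD, but shares of a gene have a fixed sum, so that it mirrors the other transcripts. The chosen i4 averaged 0% in endurant and 11.8% in burst-performant frogs, which belongs to the selection. The short i6 averaged 0% and 11.7%, but 0% and 0.474% by estimated counts, while i2 went the other way. A difference in usage beyond these transcripts thus does not follow. For the shares of i3 with i4 and of i2 with i4, the difference between the groups was smaller than either SD. In TPM itself, i2 with i4 came to 0.472 ± 0.151 in endurant and 0.706 ± 0.165 in burst-performant frogs (SD, n = 4 each). That difference was larger than either SD, but the sum includes i4, which was picked for its counts in burst-performant frogs. Sums of shares, here and below, were chosen after the values were seen. By TPM, the sum of i1 and i2 was 9.24% in frog C, the lowest of all frogs, and 70.0% in frog H, the highest. In frog B, the TPM shares of the long transcripts were lowered by the short i6, which held 34.97% on 3 counts. By estimated counts, i1 and i2 held 65.1% and 8.11% in frog B, against 43.4% and 25.9% in frog H. Frog B was thus the highest by that measure.

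The total of *ptk2*, summed over its transcripts, was 2.80, 1.89, 2.17 and 2.53 TPM in endurant frogs (A, D, E, G), against 3.59, 3.21, 3.88 and 1.68 TPM in burst-performant frogs (B, C, F, H). Frog H was the lowest and frog F the highest of all 8 frogs, and the groups overlapped. On the log2(CPM + 1) scale, the total differed by -0.29 for endurant minus burst-performant, about as much as the pooled SD of 0.29, and without i4 by -0.08. The difference of the total was -0.11 without frog C and -0.13 when scaled by library size only. Transcripts *ptk2* i6, *bcar3* i4, i5 and i7 and *ptp4a3* i7 fall outside the rule for naming and were picked after their values were seen. Transcript i6 of *ptk2* has 279 bases and held 3 and 1 counts in frogs B and F and none elsewhere, yet its short effective length turned these into 34.97% and 11.6% of the TPM of *ptk2* in those frogs. The TPM totals of *ptk2* in frogs B and F, and the TPM shares within them, rest on so few read pairs to that extent.

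The adaptor *bcar3* is known in mammals to bind the scaffold protein p130Cas downstream of focal adhesion kinase. It was assembled as 7 transcripts of 1717 to 3516 bases and had the most variable usage of the 5 genes by the number of leading transcripts, with 4 different ones over the 8 frogs. The chosen transcript i3 had 0 estimated counts in endurant frogs (A, D, E, G), against 67.8, 0, 97.3 and 25.8 in burst-performant frogs (B, C, F, H). It made up 42.4%, 34.0% and 35.6% of the TPM of *bcar3* in burst-performant frogs B, F and H, and was the leading transcript in each. Pooled over frogs, 0 of 581 rounded counts in the endurant group allow a share of up to 0.516%, against 36.7% (95% Wilson interval 32.7 to 41.0) of 520 in the burst-performant group. By depth, i3 was at least 62.4-fold lower in endurant frogs. This bound is for the pooled group, in which frog F held 50.8% of the rounded counts and frog C none. As a limit, edgeR's exact test no longer called i3 when any single frog other than C was left out (adjusted p of 0.119 to 0.177, Benjamini-Hochberg).

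Transcript i1 of *bcar3* (3516 bases, 14 more than i3) was the leading transcript in 3 of the 5 frogs that lacked i3, namely A, E and C. It held 75.1%, 18.1%, 61.2% and 15.5% of the TPM in endurant frogs (A, D, E, G), against 0%, 71.3%, 0% and 16.9% in burst-performant frogs (B, C, F, H). Both transcripts were thus present together in frog H alone, and frogs B and F had i3 without i1. The sum of both ran from 15.5% to 75.1% in endurant frogs, against 34.0% to 71.3% in burst-performant frogs. In endurant frogs D and G, where i1 was low, i7 (3217 bases) held 29.1% and 33.9%, and i7 was at 0 in endurant frogs A and E. The shortest transcript, i6 (1717 bases), was the only one of the 7 with counts in every frog. It ranged from 24.9% to 38.8% in endurant frogs and from 24.8% to 33.9% in burst-performant frogs. As a share of estimated counts, which favour long transcripts, i6 averaged 17.3% over the 8 frogs in place of 30.1% by TPM.

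The total of *bcar3* was 3.60, 4.59, 2.79 and 4.41 TPM in endurant frogs (A, D, E, G), against 2.18, 2.68, 4.39 and 3.27 TPM in burst-performant frogs (B, C, F, H). The groups overlapped, with frog D the highest and frog B the lowest of the 8. On the log2(CPM + 1) scale, the difference was 0.13, endurant minus burst-performant, less than the pooled SD of 0.29, and it changed sign to -0.04 without frog B. It was 0.04 without frog D, and 0.28 when scaled by library size only. Without i3, the remaining transcripts came to 3.85 ± 0.826 TPM in endurant and 2.23 ± 0.733 TPM in burst-performant frogs (SD, n = 4 each), and the groups still overlapped. As i3 was picked for its counts in burst-performant frogs, leaving it out lowers that group alone.

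The phosphatase *ptp4a3* belongs to the prenylated PRL family, which sits at membranes and is known in mammalian cells for promoting migration. It had the highest level of the 5 genes per length, with 84.2, 71.1, 40.6 and 85.1 TPM in endurant frogs (A, D, E, G), against 78.5, 63.3, 136.8 and 42.3 TPM in burst-performant frogs (B, C, F, H). Frogs E and H were low and frog F was high, so that the spread lay within the groups and the groups overlapped. The chosen transcript i8 had 0 estimated counts in the endurant frogs, against 11.9, 9.79, 323 and 26.9 in burst-performant frogs (B, C, F, H). Frog F alone held 86.8% of the rounded counts. It was the smallest part of its gene among the 5 chosen transcripts: it took 3.98% of the 9340 rounded counts of the burst-performant group (95% Wilson interval 3.60 to 4.40), against 0 of 6351 in the endurant group, which allow a share of up to 0.0472%. By TPM its share was 0.374%, 0.604%, 6.57% and 5.21% in frogs B, C, F and H. By depth, i8 was at least 121.6-fold lower in endurant frogs, a bound that rests mainly on frog F.

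Of the 8 *ptp4a3* transcripts, the longest, i1 (2103 bases), led in all endurant frogs and in burst-performant frogs F and H, with shares over the group of 32.2% to 41.6% in endurant and 22.0% to 45.8% in burst-performant frogs. In burst-performant frogs B and C the leading transcript was i2 (1974 bases), with 36.2% and 29.0%. Transcript i3 (1962 bases) had counts in all 8 frogs and held 11.6% ± 6.31 in endurant and 17.3% ± 3.46 in burst-performant frogs (SD, n = 4 each). Transcript i5 (1385 bases) was at 0 in endurant frog A and held between 7.08% and 20.4% in every other frog. Transcript i7 (1342 bases) showed the opposite in that frog, with 28.7% of the TPM in endurant frog A and 12.1% in endurant frog E, but 0% in endurant frogs D and G. It held 7.20% in burst-performant frog F and at most 2.86% in the other burst-performant frogs. Without i8, the total of *ptp4a3* was 70.2 ± 20.8 TPM in endurant and 77.3 ± 37.1 TPM in burst-performant frogs (SD, n = 4 each), so that i8 hardly entered the total.

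The gene *arhgdig* was assembled as 4 transcripts of 897 to 1100 bases. The chosen transcript i4, the longest, had 0 estimated counts after rounding in endurant frogs (A, D, E, G), against 92.2, 13.3, 43.7 and 43.7 in burst-performant frogs (B, C, F, H). It held 32.5%, 5.68%, 7.85% and 27.1% of the TPM of *arhgdig* in frogs B, C, F and H. It was thus a larger part of the gene in frogs B and H than in frogs C and F. Pooled over frogs, 0 of 1159 rounded counts in the endurant group allow a share of up to 0.259%, against 18.4% (95% Wilson interval 16.2 to 20.9) of 1047 in the burst-performant group. By frog, that share was 38.2%, 6.70%, 9.40% and 30.6% in frogs B, C, F and H, so that none lay within the interval. By depth, it was at least 63.1-fold lower in endurant frogs.

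The leading *arhgdig* transcript was i2 (897 bases) in every frog except H, with 59.7%, 62.9%, 63.1% and 47.2% in endurant frogs (A, D, E, G), against 52.3%, 61.1%, 50.9% and 29.7% in burst-performant frogs (B, C, F, H). Transcript i3 (1058 bases) held 32.6%, 16.2%, 29.2% and 44.8% in the endurant frogs, against 0%, 19.997%, 26.1% and 31.6% in the burst-performant frogs. In frog B, i3 was at 0 and i4 at 32.5%, while the sum of both, 32.5% in frog B, lay within the 16.3% to 44.8% of the endurant frogs. The sum of i3 and i4 was 30.7% ± 11.7 in endurant and 37.7% ± 14.5 in burst-performant frogs (SD, n = 4 each), a difference smaller than the spread. Transcript i1 (901 bases) held 11.04% ± 6.53 in endurant and 13.8% ± 1.78 in burst-performant frogs (SD, n = 4 each). Frog B was at 0 both for i3 of *ptk2* and for i3 of *arhgdig*. The total of *arhgdig* was 26.9, 18.6, 26.7 and 22.0 TPM in endurant frogs (A, D, E, G), against 14.1, 18.5, 31.2 and 26.3 TPM in burst-performant frogs (B, C, F, H). The groups overlapped, and the difference, endurant minus burst-performant, had no stable sign. It was -0.08 on log2(CPM + 1) and 0.11 on log2(TPM + 1), and on log2(CPM + 1) it was 0.08 when scaled by library size only, 0.01 without frog D and 0.10 without frog H.

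The Arp2/3 subunit *arpc4* is part of the complex that starts new actin branches on existing filaments. It had the simplest assembly, with 3 transcripts of 1403, 1449 and 1456 bases. The chosen transcript i1, the shortest, had 0 estimated counts in endurant frogs (A, D, E, G), against 107, 3.99, 111 and 29.0 in burst-performant frogs (B, C, F, H). Its share of the TPM was 19.9%, 19.96% and 19.8% in burst-performant frogs B, F and H, whose totals of *arpc4* rested on 555, 575 and 151 counts, and 1.28% in burst-performant frog C. Frogs B, F and H thus lay within 1 percentage point of each other, and frog C was closer to the endurant frogs than to them. By rounded counts, the share of 1.23% in frog C lay below the limit of 2.91% that 0 counts allow in endurant frog D. Pooled over frogs, 0 of 1273 rounded counts in the endurant group allow a share of up to 0.236%, against 15.6% (95% Wilson interval 13.9 to 17.5) of 1605 in the burst-performant group. By depth, i1 was at least 82.1-fold lower in endurant frogs, and frog F held 44.2% of its rounded counts.

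Both other *arpc4* transcripts had counts in all frogs. Transcript i3 held 50.3% to 58.1% in endurant frogs and 34.5% to 52.4% in burst-performant frogs. Transcript i2 held 45.7% ± 3.18 in endurant and 42.6% ± 3.996 in burst-performant frogs (SD, n = 4 each). In CPM, the total of *arpc4* was 34.2, 23.2, 34.5 and 26.4 in endurant frogs (A, D, E, G), against 42.0, 46.5, 35.3 and 43.2 in burst-performant frogs (B, C, F, H). It was the only one of the 5 totals whose groups did not overlap, as was the case, lower in endurant frogs, for 1.37% of all 35656 Trinity genes tested. The gap between frogs E and F was small, and in TPM the groups did overlap, with 15.8 ± 3.09 in endurant and 19.9 ± 2.47 in burst-performant frogs (SD, n = 4 each). Without i1 they overlapped in CPM as well, and i2 and i3 together came to 15.8 ± 3.09 TPM in endurant and 16.8 ± 1.96 TPM in burst-performant frogs.

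**Figure D2:**
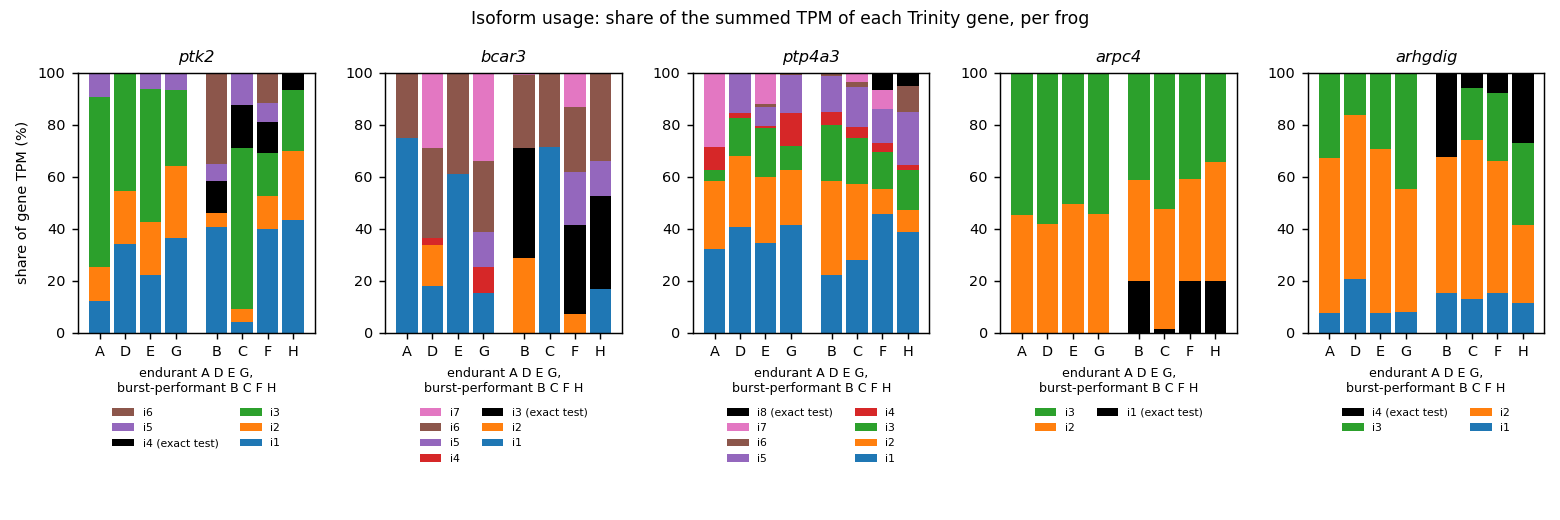
Share of the summed TPM of each Trinity gene (vertical axis, percent) held by each transcript, 1 stacked bar per frog, with endurant frogs (A, D, E, G) left of burst-performant frogs (B, C, F, H). Black marks the transcript that passed the exact test, which is absent from the endurant bars and reaches 42.4% in *bcar3* of frog B but at most 6.57% in *ptp4a3*.

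Across the 5 genes, 11 of the 28 transcripts had counts in all 8 frogs. Among the 24 tested transcripts, 13 (54.2%) had no count in at least 1 frog, as had 52.3% of the 36531 tested transcripts of Trinity genes that had at least 2. The 13 include the 5 chosen transcripts, whose zeros in endurant frogs belong to the values they were picked for. Nothing about the genes follows from the likeness of these 2 shares. In all 5 genes the leading transcript was not the same in every frog, which was also so for 68.6% of the 7454 Trinity genes with 2 or more transcripts and a mean CPM of at least 5. Only *bcar3* i4 (3487 bases, too low to be tested) had no count in any burst-performant frog. In 2 endurant frogs, D and G, it held 2.68% and 9.79% of the TPM, on 3 and 21 rounded counts. It had none in endurant frogs A and E, so that it rests mainly on frog G. The 19 other tested transcripts had fitted log2 fold changes, endurant over burst-performant, between -1.22 (*bcar3* i5) and 2.24 (*bcar3* i7), of which 9 were above and 10 below 0.

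**Figure D3:**
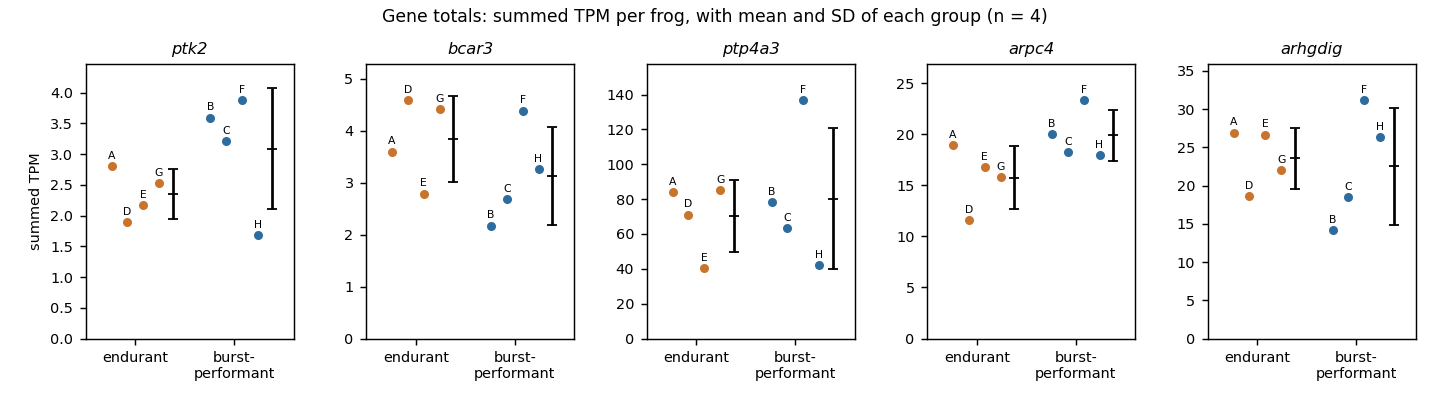
Summed TPM of the 5 Trinity genes (vertical axis, from 0), 1 lettered point per frog, with endurant frogs left of burst-performant frogs and the mean and SD of each group (n = 4) beside them. The groups overlap in every panel, and *ptp4a3* lies above the other genes, at 40.6 to 136.8 TPM.

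Over the totals of the Trinity genes, edgeR's quasi-likelihood test called 0 of the 5 and 0% of all 35656 tested (1579 had an unadjusted p under 0.05, none of them among the 5), edgeR's exact test 0 of the 5 and 0.126% of all (0.0477% lower in endurant frogs), and DESeq2's Wald test 0 of the 5 and 0.0926% of all (0.0309% lower in endurant frogs). By DESeq2's Wald test, the *arpc4* total had an unadjusted p of 0.0311 (adjusted p = 0.954). The median difference of the 5 totals on the log2(CPM + 1) scale was -0.28, endurant minus burst-performant, beside 0.01 over all tested Trinity genes. Singly, the totals differed by -0.50 for *arpc4* (pooled SD 0.23), -0.29 for *ptk2*, -0.28 for *ptp4a3*, -0.08 for *arhgdig* and 0.13 for *bcar3*. These totals include the chosen transcripts, and without them the median was -0.08. The single differences without them were 0.75 for *bcar3*, 0.26 for *arhgdig*, -0.08 for *ptk2*, -0.22 for *ptp4a3* and -0.27 for *arpc4*. Leaving out a transcript picked for its counts in burst-performant frogs lowers that group alone. A shift of each difference toward endurant frogs was thus fixed by the selection, and these values support nothing about the remaining transcripts. The median absolute difference was 0.28 for the 5 totals, 0.26 for them without the chosen transcripts, and 0.23 over all tested Trinity genes. Per length, the order of the genes by mean TPM over the 8 frogs was *ptp4a3* with 75.2, *arhgdig* with 23.0, *arpc4* with 17.8, *bcar3* with 3.49 and *ptk2* with 2.72. The ranges of *arhgdig* (14.1 to 31.2 TPM) and *arpc4* (11.6 to 23.3 TPM) overlapped, as did those of *bcar3* (2.18 to 4.59 TPM) and *ptk2* (1.68 to 3.88 TPM). The levels of *ptp4a3* began at 40.6 TPM, above every value of the other 4 genes.

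Of the 4 traits behind the grouping, maximum swimming velocity and acceleration overlapped between the groups. The distance covered and the time spent moving until exhaustion did not overlap between the groups, and relations to these traits were not tested. For the other traits, log2(CPM + 1) of each of the 5 totals was set against the trait over all 8 frogs. The groups were derived from these same traits, so that these relations are not independent of the grouping. The totals also include the chosen transcripts, so that neither these relations nor those among the totals are independent of the selection. In frog C, *ptk2* was at 24.7 CPM with i4 and at 20.4 CPM without it. Relations without the chosen transcripts are not given here. None of the 10 relations passed an adjusted p of 0.05 (2-sided exact permutation over all pairings, Benjamini-Hochberg over the 10 relations), and 1 had an unadjusted p under 0.05. That relation was *ptk2* with acceleration, at a Pearson r of 0.91 (exact permutation p = 0.00667, adjusted p = 0.0667) and a Spearman coefficient of 0.79 (exact permutation p = 0.0279, adjusted p = 0.279). Its r was 0.57 without frogs A and C, the farthest from the median acceleration. It was 0.65 without frog C alone and 0.94 without frog A alone, so that it rests on frog C.

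Frog C had both the highest acceleration and the highest *ptk2* total in CPM, 24.7, against 11.98 to 15.9 in the other 7 frogs. It also had the lowest TMM factor of the 8 libraries, 0.763, and by library size alone frog F, at 19.9 CPM, was above frog C, at 18.8 CPM. The relation of *ptk2* with acceleration moved with the scaling. With DESeq2's size factors it had an r of 0.93 and passed the threshold (adjusted exact permutation p = 0.0258), and in TPM it had an r of 0.43 (adjusted exact permutation p = 0.681). The next highest r were those of *ptk2* with velocity (r = 0.63 and Spearman coefficient = 0.66, exact permutation p = 0.0635 and p = 0.085, adjusted p = 0.318 and 0.283), of *ptp4a3* with velocity (r = 0.57 and Spearman coefficient = 0.57, adjusted exact permutation p = 0.331 and 0.302) and of *arpc4* with acceleration (r = 0.57 and Spearman coefficient = 0.57, adjusted exact permutation p = 0.331 and 0.302). By Spearman coefficient, *arpc4* with velocity stood above these, at 0.68 (exact permutation p = 0.0729, adjusted p = 0.283), with an r of 0.55 (adjusted exact permutation p = 0.331). Without frogs C and D, the farthest from the median velocity, its r was 0.07. With velocity and without the same frogs, r was 0.24 for *ptk2* and 0.73 for *ptp4a3*. For *bcar3* and *arhgdig*, r over all 8 frogs lay between -0.24 and 0.15 with both traits. The 10 relations among the 5 totals had r between -0.58 (*ptp4a3* with *arhgdig*) and 0.64 (*ptk2* with *arpc4*), with adjusted p of 0.613 to 0.945 by the exact permutation test. At 8 frogs, none of the totals could thus be shown to vary together.

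**Figure D4:**
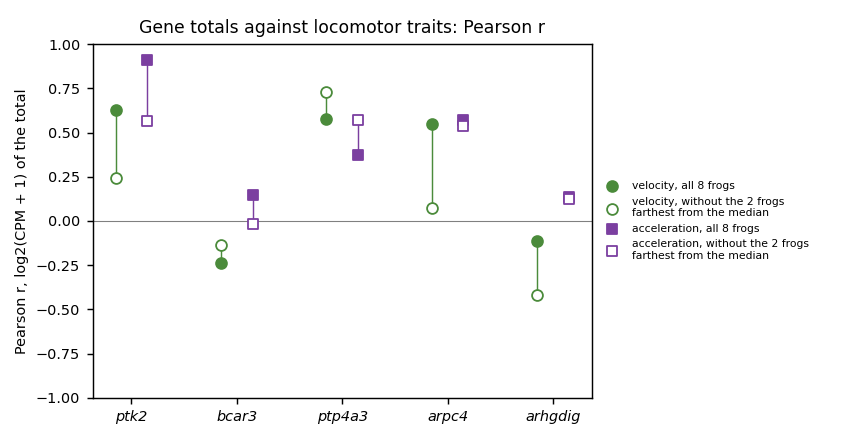
Pearson r (vertical axis) of log2(CPM + 1) of each gene total with maximum velocity (circles) and acceleration (squares), filled over all 8 frogs and open without the 2 frogs farthest from the median of the trait. *ptk2* with acceleration stands highest at 0.91 and drops to 0.57 without frogs A and C.

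The chosen transcripts did not follow a common order among the burst-performant frogs. By TPM, *ptk2* i4 was highest in frog C, *arhgdig* i4 in frog H, and *bcar3* i3, *ptp4a3* i8 and *arpc4* i1 in frog F. With 4 frogs, these orders were not tested.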

How the data were processed

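Per the article's methods, the authors trimmed the reads with Trimmomatic, joined the frogs' reads into 1 Trinity assembly and estimated abundance with Kallisto. No source used here states their versions. Deposited estimated counts are read pairs per transcript, not corrected for depth or length, with ambiguous pairs shared among transcripts. The deposited TPM values sum to 1000000 per frog. The deposited tables also give transcript lengths.

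After rounding to whole numbers, estimated counts of transcripts and their sums over Trinity genes were kept if 2 frogs or more exceeded a CPM of 1, and tested with edgeR 4.0.16 in R 4.3.3 (TMM, glmQLFit, glmQLFTest). Alternatives were edgeR's exact test, DESeq2 1.42.0, limma 3.58.1 on log2(TPM + 1), DESeq2's size factors, library size only, filterByExpr, no filter, and each frog left out. Fold changes are endurant over burst-performant. Relations over frogs used exact permutation of log2(CPM + 1) totals against the traits the article lists, with Python 3.11.15 and scipy 1.17.1. The quasi-likelihood and exact tests of edgeR were also run on simulated counts with known changes. No transcript was set to 0 in a whole group there, and the outcome is not given here. Where every endurant frog was at 0, folds used a floor of 3 counts over the group.

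The members and lists were chosen with earlier results of these data known. Named singly were the transcripts that passed the exact test and those with at least 10% of the TPM of their gene on average, 19 in all, while 5 others were named after their values were seen. For each total, the Trinity gene of highest Pearson r with a mean CPM of at least 10 was also named. Sequences were not analysed here.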

Additional observations from a re-analysis of the deposited data

Results flagged for a closer look

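In groups of 4 frogs, a frog was singled out where its gap to the nearest other frog was too large a part of the range of the group by Dixon's 95% limit. Of 43 groups examined over the 5 gene totals and the transcripts named singly, 3 had such a frog, and chance gives about 1 in 20. The *ptp4a3* total of endurant frog E was 111 CPM, against 181 to 195 CPM in the other endurant frogs. The *ptp4a3* transcript i1 of burst-performant frog F was at 62.6 TPM, against 16.3 to 17.8 TPM in the other burst-performant frogs. The *arhgdig* transcript i1 (901 bases) of endurant frog D was at 3.87 TPM, against 1.76 to 2.06 TPM in the other endurant frogs. Their causes were not tested.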

How the results depend on the processing

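For transcripts, the quasi-likelihood test called 0, while edgeR's exact test called 109, DESeq2 153, limma on log2(TPM + 1) 5 and the quasi-likelihood test without a filter 13, of which 2 were members (*arpc4* i1 and *arhgdig* i4). For Trinity gene totals the same settings gave 0, 45, 33, 2 and 730, none of them members. Leaving out a frog gave 0 to 0 calls of transcripts and 0 to 1 of totals, the 1 without frog C. Other scalings and filterByExpr left both at 0. Of the chosen transcripts, filterByExpr kept only *arhgdig* i4, so that the others were not tested under that setting. With DESeq2's size factors, 1 of the 10 relations to traits passed, *ptk2* with acceleration (r = 0.93, adjusted exact permutation p = 0.0258, against 0.0516 to 0.681 under its other alternatives). No relation among totals passed under any alternative. In an alternative chosen after seeing the data, the exact test without each frog in turn called 4 or 5 of the 5 chosen transcripts, and the one lost was *bcar3* i3. These calls are on the contrast the transcripts were picked on and support nothing about them. The sign of their differences was fixed, as their rounded counts were 0 in every endurant frog. In size, the differences grew with a pseudocount of 0.1 (-4.48 to -5.56 on the log2 scale), since they are set against 0. They shrank in TPM (-0.46 for *ptk2* i4 and -0.84 for *bcar3* i3, to -2.08 for *arhgdig* i4). The low sums of estimated counts in frogs D and H limit how firmly a 0 there can be read.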

Other observations

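Over the 8 frogs, the Trinity genes whose totals were most like those of the 5 genes, among 6093 others with a mean CPM of at least 10, were TR80378|c3_g1 for *ptk2* (Pearson r = 0.95 on log2(CPM + 1)), TR75899|c1_g1 for *bcar3* (r = 0.92), TR68914|c1_g1 for *ptp4a3* (r = 0.99), TR38922|c8_g1 for *arpc4* (r = 0.95) and TR27104|c0_g1 for *arhgdig* (r = 0.91). They carry no gene name in the files. Such values are the highest of many over few frogs and are given as a description.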
